A study of Mus musculus with 4 samples.

Results

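The Fc gamma receptors bind the constant part of IgG antibodies. The genes described here are the mouse receptor genes Fcgr1, Fcgr2b, Fcgr3 and Fcgr4, the adaptor genes Fcer1g and Tyrobp, the kinase gene Syk and the receptor gene Trem2. They were chosen by symbol, 8 genes of the 23783 with a symbol in the count table. The samples were libraries of BV-2, an immortalised mouse microglial cell line that serves as a model of brain macrophages. There were 2 control libraries and 2 libraries of cells given lipopolysaccharide (LPS), which is part of the outer membrane of Gram-negative bacteria and signals through Toll-like receptor 4, at 10 ng/ml for 4 h. The controls carry the same 4 h in their titles. Separate cultures are not named for the replicates, so the p-values reflect the spread among these libraries alone, which may be technical. The growth text also tells of shaking mixed glial cultures, while every library is labelled as the cell line.

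Activating Fc gamma receptors carry no immunoreceptor tyrosine-based activation motif (ITAM) of their own in the mouse. They sit in the membrane with the FcR gamma chain, the product of Fcer1g, whose tail supplies it. When IgG-coated material clusters the receptors, Src family kinases phosphorylate the ITAM tyrosines, and the kinase Syk docks there and passes the signal on to phagocytosis and cytokine release. Trem2, a microglial receptor for lipids and apolipoproteins, signals the same way through the ITAM of Tyrobp. The product of Fcgr2b is the inhibitory member and carries the opposite motif, an ITIM, which recruits phosphatases.

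The coding sequences of these motifs are shown because they divide the activating from the inhibitory genes. Capitals mark the tyrosine codons. The sequences were read from GENCODE transcripts on GRCm38 and run 5′ to 3′ on the coding strand.
Fcer1g ITAM: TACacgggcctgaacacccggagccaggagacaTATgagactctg
Tyrobp ITAM: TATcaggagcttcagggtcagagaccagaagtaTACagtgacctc
Fcgr2b ITIM: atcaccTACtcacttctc
The Fcer1g motif starts at codon 65 of 86, on the minus strand at chr1:171229889-171230072, and is split by an intron. In Tyrobp it starts at codon 92 of 114, on the plus strand at chr7:30415670-30417382, and is split by an intron as well. The ITIM of Fcgr2b lies within 1 exon, on the minus strand at chr1:170961071-170961088. Both ITAMs are 45 bases long and hold a pair of tyrosine codons, and the ITIM holds 1.

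Library totals ran from 2778686 to 3368693 counts, of which the 5 most abundant records took 53.4% to 67.5%, the highest share in control 1. Of 32915 transcript records, 6981 from 6913 genes passed a count filter and were tested with edgeR. At an adjusted p below 0.05, 267 records (3.82%) were higher after LPS and 119 (1.7%) lower. After removal of trends with GC and length, the split was 440 higher and 340 lower. The ratio of control 2 to control 1 followed GC content, with a Spearman correlation across records of -0.66, against -0.27 in the LPS pair. Of 10 macrophage and microglia markers 6 were tested. The summed raw counts of all 10, not scaled for depth, were 2111 to 3324 in the controls and 3360 to 3583 after LPS. Outside the 5 most abundant records, control 1 held 902176 counts and the other libraries 1327707 to 1425303. Of the 6, Spi1 was called higher and none lower, and the median log2 fold change was -0.24. Spi1 and Adgre1 were above both controls in both LPS libraries, and Csf1r, Cd68, Cd53 and Laptm5 were below them. Laptm5, a lysosomal membrane protein, had a log2 fold change of -0.63 (adjusted p = 0.105 in edgeR), near those of Fcgr1 and Fcgr3 given below, and its part in their values was not tested. Csf1r, Cd53, Laptm5 and Adgre1 were among those present, Itgam was at 0 counts and Ptprc at 11 over the 4 libraries (several records each), Aif1 at 17 and Cx3cr1 at 23. None of the marker genes of astrocytes, oligodendrocytes, neurons, lymphocytes, mast cells or fibroblasts was tested, and no such list exceeded 2 counts in a library.

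Among the 8 genes, 5 passed the filter and 3 did not. The transcripts of Fcgr1 and Fcgr3 lay below both controls in both LPS libraries, by about the same factor, while Fcer1g, the adaptor they share, had overlapping groups. None of the 5 passed edgeR's adjusted threshold in either direction, against 5.53% of all tested records. At an unadjusted p below 0.05 there were 2, Fcgr1 and Fcgr3, against 15.4% of all tested records. DESeq2, which called 3.84% of records, and limma-voom, which called 5.19%, called 0 of the 5 each. In 3 of the 5, Fcgr1, Fcgr3 and Tyrobp, both LPS libraries were below both controls, as in 21.9% of all tested records. The median log2 fold change of the 5 was -0.18, against -0.01 over all genes tested.

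Fcgr1 encodes the high-affinity receptor for monomeric IgG (record NM_010186, chr3:96282909-96293969). Its counts, normalised to a common library size, were 401 and 341 in the control libraries and 252 and 214 after LPS. Both LPS values were lower than either control value, and the gap was wider than the distance between libraries of a group. The means were 371 ± 42.4 and 233 ± 27.0 (SD, n = 2 each). The fitted fold was 0.631 with a 95% interval of 0.469 to 0.848, a log2 fold change of -0.66 (SE 0.194) with a Benjamini-Hochberg adjusted p of 0.0849 in edgeR's quasi-likelihood test.

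Fcgr3 encodes a low-affinity activating receptor for immune complexes (NM_010188, chr1:171051169-171065915). It had 717 and 597 normalised counts in the controls and 406 and 412 after LPS. The LPS libraries lay close together and below both controls. The means were 657 ± 85.3 and 409 ± 4.13 (SD, n = 2 each). The fitted fold was 0.623 (95% interval 0.472 to 0.823), a log2 fold change of -0.68 (SE 0.183) with an adjusted p of 0.0568 in edgeR. Its transcripts share 3.37% of their 101-base windows, the read length, with those of Fcgr2b, and none with Fcgr1 or Fcgr4.

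Whether Fcgr1 and Fcgr3 crossed the threshold depended on the setting and on which library was left out. With GC and length trends removed, both passed as lower in edgeR (adjusted p = 0.00287 for Fcgr1 and 0.000783 for Fcgr3), where 4.87% of records were lower. Without control 1, which holds the largest share in a few records, the adjusted p was 0.00676 for Fcgr1 and 0.00123 for Fcgr3, with 6.65% of records lower. Without control 2 the values were 2.39e-05 and 1.64e-07, with 8.09% of records lower. Without LPS 1, adjusted p was 0.616 and 0.790, and without LPS 2 it was 1.0 and 0.815. The fold change of each gene kept its sign in all of these fits. Over the whole table, fewer records were lower without either LPS library than without either control. The shift in adjusted p is therefore not particular to these genes. With 1 library left in a group, that library is assumed to vary like the rest, and the replicate spread comes from the other group alone. Fcgr3 alone also passed without a count filter (adjusted p = 0.0400, with 1.6% of records lower) and among records averaging at least 50 normalised counts (adjusted p = 0.0477, with 1.31% lower).

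**Figure D1:**
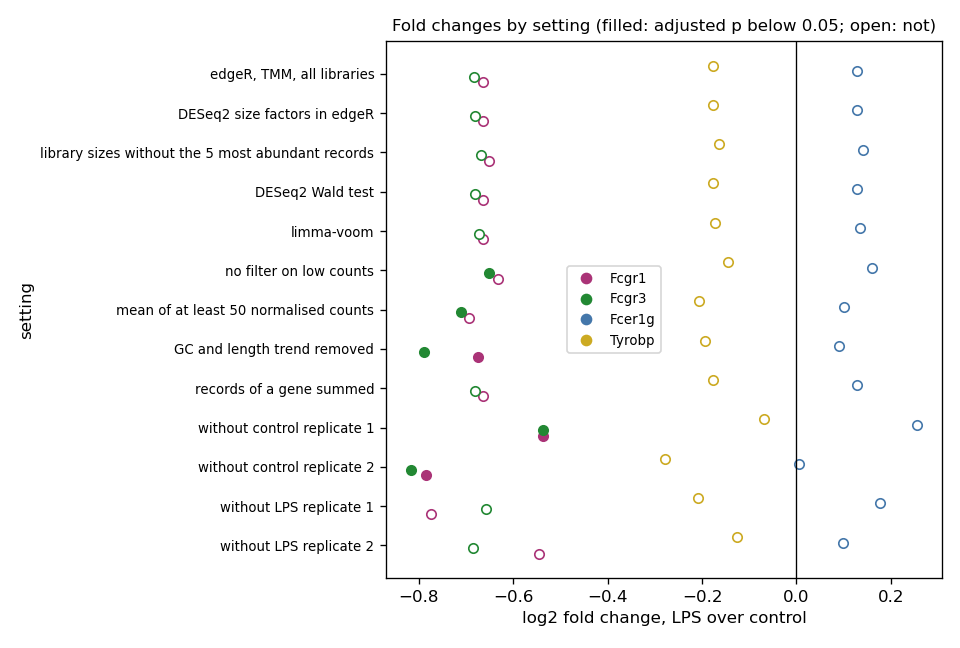
Log2 fold change, LPS over control (x axis), of Fcgr1, Fcgr3, Fcer1g and Tyrobp in edgeR with TMM scaling and under alternative settings (y axis). Filled points have an adjusted p below 0.05. The settings with a replicate block are not drawn. Fcgr1 stays between -0.78 and -0.54 and Fcgr3 between -0.82 and -0.54, and no point of Fcer1g or Tyrobp is filled.

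Fcgr4 encodes another activating receptor that needs the gamma chain (NM_144559, chr1:171018926-171029761). Its transcript was rare, with 14 and 12 raw counts in the controls and 21 and 14 after LPS. In normalised counts these were 19.7 and 10.1 against 19.4 and 13.7, so the groups overlapped. The fold of 1.18 had a 95% interval from 0.599 to 2.33 (adjusted p = 0.910 in edgeR), and at this depth a change of the size seen for Fcgr1 or Fcgr3 lay inside the interval.

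Fcer1g, the gene of the FcR gamma chain itself (NM_010185, chr1:171229572-171234349), had 281 and 239 normalised counts in the controls and 276 and 290 after LPS. The groups overlapped, with control 1 between the LPS libraries. The means were 260 ± 30.0 and 283 ± 9.91 (SD, n = 2 each). The fold was 1.09 with a 95% interval from 0.818 to 1.46 (adjusted p = 0.877 in edgeR). The fold values of 0.631 and 0.623 seen for Fcgr1 and Fcgr3 are outside this interval. Their own 95% intervals, 0.469 to 0.848 and 0.472 to 0.823, overlap it at the edge.

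Tyrobp, the adaptor of Trem2 and of several other myeloid receptors (NM_011662, chr7:30413782-30417582), had 1082 and 944 normalised counts in the controls and 923 and 867 after LPS. Both LPS values were the lower ones, by a margin smaller than the distance between the controls. The fold was 0.884 (95% interval 0.676 to 1.16, adjusted p = 0.785 in edgeR). In bulk RNA, fewer cells that carry a transcript and less of it per cell cannot be told apart.

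**Figure D2:**
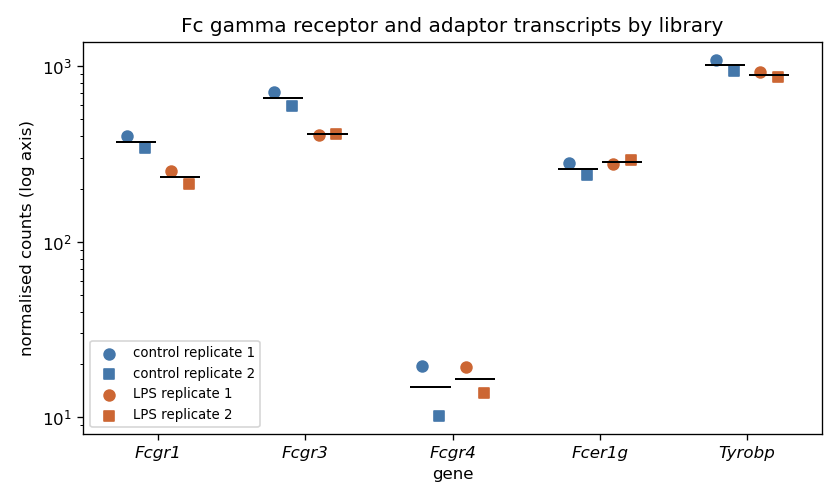
Normalised counts (y axis, log scale) of the 5 tested genes in each library, controls in blue and LPS in orange, circles for replicate 1 and squares for replicate 2, with group means as lines. Fcgr1 and Fcgr3 are lower in both LPS libraries, and Fcgr4 and Fcer1g overlap between groups.

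Scaled per kilobase of transcript, the order of levels in the controls was Tyrobp, Fcgr3, Fcer1g, Fcgr1 and Fcgr4. Tyrobp stood at 1796 ± 172 normalised counts per kb in the controls and 1587 ± 69.3 after LPS (SD, n = 2 each), with a mean record level above 96.7% of tested records. Fcgr3 was at 488 ± 63.3 in the controls and 303 ± 3.07 after LPS, and Fcer1g at 386 ± 44.6 and 421 ± 14.7. These neighbours changed places: Fcgr3 was above Fcer1g in both controls and below it in both LPS libraries. Fcgr1 had 143 ± 16.4 and 90.1 ± 10.4 per kb, and Fcgr4, at 11.9 ± 5.38 and 13.2 ± 3.22, was the rarest of the tested genes. No neighbours in either group's order overlapped between libraries.

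Ratios between genes within a library do not depend on how libraries are scaled. They were chosen after the values had been seen, 4 in all. The count ratio of Fcgr3 to Fcer1g, receptor to its adaptor, was 2.55 and 2.50 in the controls and 1.47 and 1.42 after LPS. Replicates were nearly the same, and the groups lay well apart. Per kilobase the ratio was 1.28 and 1.25 in the controls and 0.735 and 0.709 after LPS, 0.572 of its control value. Fcgr1 to Fcer1g was 1.43 in both controls and 0.913 and 0.737 after LPS, again with no overlap, and its LPS value was 0.575 of the control value. Fcer1g to Tyrobp, per kilobase, was 0.218 and 0.212 in the controls and 0.251 and 0.280 after LPS, which makes it higher in both LPS libraries, by a factor of 1.23. In counts, Fcgr1 to Fcgr3 was 0.559 and 0.571 in the controls and 0.622 and 0.520 after LPS, where the LPS values lie on either side of the controls. An exact two-sided permutation test with 2 libraries against 2 cannot go below p = 0.333, which every ratio but Fcgr1 to Fcgr3 had (0.444 adjusted over the 4), and Fcgr1 to Fcgr3 had p = 1.0.

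**Figure D3:**
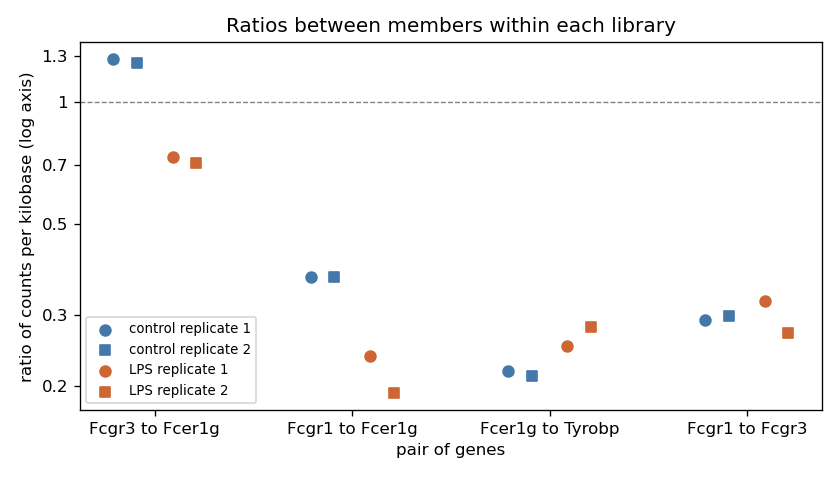
Ratio of counts per kilobase (y axis, log scale) for 4 pairs of genes (x axis) within each library, controls in blue and LPS in orange. Fcgr3 to Fcer1g lies above 1 in both controls and below 1 in both LPS libraries, and Fcgr1 to Fcgr3 overlaps between groups.

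Fcgr2b, Syk and Trem2 were at the limit of detection in this table. Fcgr2b (chr1:170960558-170976071) has 2 records, NM_001077189 with 0 and 2 counts in the controls and 2 and 2 after LPS, and NM_010187 with 0 in all 4 libraries. The exact 95% interval of the first record's rate ratio, LPS over control, ran from 0.258 to 19.9. Syk (chr13:52582610-52648792) has 2 records with 5 counts each. NM_001198977 had 0 and 1 in the controls and 2 and 2 after LPS, a ratio of 3.60 (0.357 to 177), and NM_011518 had 1 and 3 in the controls and 1 and 0 after LPS, a ratio of 0.225 (0.00457 to 2.28). The intervals all hold 1, so no difference was detectable at these counts. Trem2 (chr17:48346401-48352276) had a single count, in control 2, for NM_001272078, and 0 for NM_031254. A count of 0 over a group allows up to 0.514 CPM in the controls and 0.465 after LPS, which covers counting error only.

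The 3 genes at this limit are also the 3 with more than 1 record, while each of the 5 tested genes has 1. Where records of a gene share exons, few bases belong to 1 record alone: at most 141 for a record of Fcgr2b, 443 for Syk and 87 for Trem2. Over the whole table, 40.7% of the 15857 coding genes with 1 record were tested and 6.68% of the 4205 with 2 or more. Among the latter with matched transcripts, the share was 1.12% of 1164 genes whose records hold under 100 such bases, 2.24% of 1472 with 100 to below 500, 6.57% of 472 with 500 to below 1000 and 18.4% of 1011 with 1000 or more. How reads on shared exons were counted is not given in the sources used here, and its part in the low counts of Fcgr2b, Syk and Trem2 was not tested. The ratio of activating receptors to Fcgr2b was therefore not formed.

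**Figure D4:**
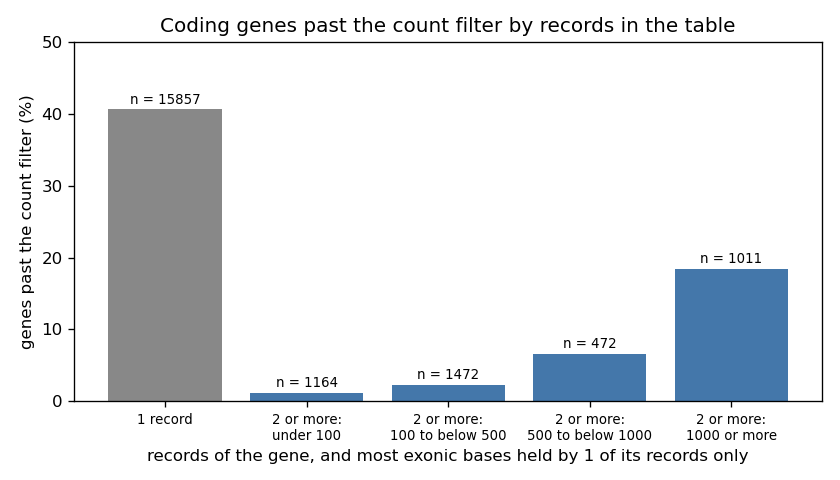
Share of coding genes that passed the count filter (y axis, percent), for genes with 1 record and for genes with 2 or more, split by the most exonic bases that 1 record alone holds (x axis); n is the number of genes. The share is 40.7% with 1 record and 1.12% where fewer than 100 bases belong to 1 record.

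The bases just before the annotated starts of Fcgr1 and Fcgr3 are shown because these receptors had the low LPS values. RefSeq promoters on GRCm38.p6 were available for 7 of the 8 genes, without Tyrobp. Fcgr3 has 2 starts there, a few bases apart and both inside the longer gene span given above, and the upstream one is shown. From the other start, the Fcgr3 matches described below begin at 15 and 160 bases. Each stretch is 200 bases that end just before a start, printed 5′ to 3′ on the minus strand, which both genes use, with motif matches in capitals.
Fcgr1 chr3:96293970-96294169: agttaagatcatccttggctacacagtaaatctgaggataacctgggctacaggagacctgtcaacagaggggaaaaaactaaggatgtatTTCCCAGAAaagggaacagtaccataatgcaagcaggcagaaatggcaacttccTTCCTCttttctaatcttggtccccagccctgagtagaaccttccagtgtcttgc
Fcgr3 chr1:171059404-171059603: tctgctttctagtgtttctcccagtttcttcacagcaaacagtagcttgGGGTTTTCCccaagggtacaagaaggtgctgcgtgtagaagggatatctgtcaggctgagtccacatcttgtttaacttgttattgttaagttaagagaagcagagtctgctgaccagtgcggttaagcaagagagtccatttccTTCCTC
Searched on both strands were GAGGAA, the core of the box bound by the myeloid factor encoded by Spi1, and TTCNNNGAA, GAAANNGAA, GGNNTTTCC and TGANTCA, the letters of GAS, ISRE, NF-kB and AP-1 sites. The Spi1 core is present before Fcgr1, starting 55 bases ahead of the start, and before Fcgr3, 6 bases ahead. It is present before Fcgr4 too, at 22 bases, before Trem2, at 40, and before 1 of 2 starts of Syk, at 9. It is absent from the stretches of Fcgr2b and Fcer1g and of the other Syk start, while 19.0% of 32851 promoters of this length hold it. The GAS letters occur before Fcgr1, at 109 bases (5.49% of promoters), and the NF-kB letters before Fcgr3, at 151 (4.05%). Fcgr4 has the ISRE letters at 73 (5.57%), and the AP-1 letters (5.48% of promoters) occur before Trem2, at 9, and before no other of the 7 genes. No matches overlap one another in these stretches. They describe letters only and say nothing of binding.

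Spi1 itself, on the macrophage marker list, had 579 and 438 normalised counts in the controls and 1121 and 1129 after LPS. Its log2 fold change was 1.15 (SE 0.193, adjusted p = 0.00391 in edgeR), so it rose where Fcgr1 and Fcgr3 had their lower values. The adjusted p was 0.0517 without LPS 1 and 0.0823 without LPS 2.

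Fcgr2b, Fcgr4, Fcgr3 and Fcer1g lie within 274 kb of chromosome 1, at chr1:170960558-171234349. The table holds 12 genes of this stretch, of which 6, Fcgr3, Fcgr4 and Fcer1g among them, were tested. edgeR called 0 of the 6, where 5.53% of all tested records were called. Among those named after their values were seen, Sdhc, between Fcgr3 and Fcer1g, had a log2 fold change of -0.00. Tomm40l, also named in this way and near Fcer1g with Apoa2 between them, had -0.62 (adjusted p = 0.136 in edgeR). Mir6546, inside the Fcgr3 span, has a record of its own with 120 and 141 normalised counts as group means, while strand use in counting is not given in the sources used here.

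Genes with the most alike pattern were found by the root mean square difference of centred log2 values over the 4 libraries, among 2594 or 2595 genes averaging at least 100 normalised counts. For Fcgr1 they were the histone genes H3c13 (0.0271) and H3c1 (0.0548). For Fcgr3 they were Metrn (0.0405) and Myh9 (0.0445), and for Fcgr4 S100a1 (0.0773) and Tbkbp1 (0.0932). Fcer1g was most alike to Mrpl3 (0.0134) and Rpl24 (0.0155), and Tyrobp to Mpp1 (0.0130) and Mcm3 (0.0183). Of 49 tested histone genes, 37 (75.5%) were below both controls, against 21.9% of all records, and 3 were called lower, against 1.7% of all records. Their median log2 fold change was -0.47. Their summed normalised counts were 55009 and 37425 in the controls and 34687 and 31748 after LPS, so control 1 stood far above the other libraries. Their part in the Fcgr1 result was not tested.

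The other genes of the pathway were taken from 7 lists with 166 genes, of which 160 are in the table and 71 were tested. With edgeR, 11 of the 71 were higher and 1 was lower after LPS, where 3.82% and 1.7% of all tested records were, and the median log2 fold change over the 71 was 0.03. Of genes with 1 record, 60 of 84 were tested, and of those with several, 11 of 76. A gene near 0 in the controls passes the filter only through LPS, so these counts lean upward. Among the called genes, Socs3, Bcl10 and Clec12a reached it only with their LPS libraries.

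Receptors that use the same adaptors moved in both directions. The table holds 21 genes of this list, of which 8 were tested, 2 were higher and 1 lower, with a median of 0.58. Among the 8 are also Hcst, itself an adaptor gene, and the growth factor receptor gene Csf1r. Clec4e, whose product Mincle senses mycobacterial glycolipid through the FcR gamma chain, had 47.8 and 49.0 normalised counts in the controls and 1001 and 1147 after LPS. That is a rise of 22.1-fold, with an adjusted p of 2.57e-07 in edgeR, while its adaptor gene Fcer1g had overlapping groups. Trem1, which amplifies inflammatory signals through Tyrobp, rose from 18.3 and 20.3 to 131 and 117, by 6.36-fold (adjusted p = 9.24e-05). Cd300lb, another Tyrobp partner, was at 146 and 165 in the controls and at 49.0 and 41.1 after LPS, and fell to 0.290 of its control level (adjusted p = 0.000706). Csf1r, the growth factor receptor of macrophages and the most abundant of the list in the controls (after LPS, Clec4e was), was at 512 ± 55.7 and 441 ± 17.5 and did not pass (adjusted p = 0.728).

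Of the inhibitory ITIM receptors, the class of Fcgr2b, 5 of 21 in the table were tested and 2 were higher, with a median of 1.92. That median is the value of Pirb, named after its values were seen and not called (adjusted p = 0.0808 in edgeR). Pirb had 2 and 5 raw counts in the controls and 18 and 12 after LPS. It passed the filter through its LPS libraries, so the median leans upward. Pilra rose from 29.5 and 35.4 to 274 and 292 normalised counts, by 8.57-fold (adjusted p = 1.32e-05 in edgeR). Clec12a, a receptor for uric acid crystals, rose from 11.3 and 15.2 to 50.8 and 65.5, by 4.25-fold (adjusted p = 0.00304 in edgeR). With 8 and 18 raw counts in the controls, it needed its LPS libraries to pass the filter. Cd300a, the most abundant of the 5 in the controls (after LPS, Pilra was), had overlapping groups, at 147 ± 26.6 and 135 ± 40.3. Of the 13 other Fc receptor genes none was tested, with 13 to 20 counts in all per control library and 16 to 18 per LPS library.

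The kinases that act before and beside Syk could hardly be read. Of 15 Src and Tec family genes and their regulators 2 were tested, Csk and Btk. Of these, 0 were called by edgeR, DESeq2 or limma-voom and 0 had an unadjusted p below 0.05. Over all tested records the shares were 5.53%, 3.84%, 5.19% and 15.4%. Csk, which holds Src kinases inactive, was the more abundant, at 81.3 ± 36.2 in the controls and 68.9 ± 0.721 after LPS.

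Further down, 29 of 45 adaptor and effector genes were tested, and 5 were higher, 0 lower, with a median of 0.05. Lcp2, the scaffold SLP-76 phosphorylated by Syk, rose from 194 and 153 to 553 and 629 normalised counts, by 3.43-fold (adjusted p = 0.000196 in edgeR). Pik3r5, a regulatory subunit of PI3-kinase gamma, rose 3.45-fold (adjusted p = 0.00114), and Pik3ap1, an adaptor for PI3-kinase, rose 2.12-fold (adjusted p = 0.0121). Malt1 and Bcl10 work with Card9 in the complex that links Syk to NF-kB. Malt1 rose from 111 and 153 to 366 and 461, by 3.10-fold (adjusted p = 0.000907 in edgeR). Bcl10 had 8.44 and 2.53 in the controls and 22.2 and 21.5 after LPS, 4.44-fold (adjusted p = 0.0369 in edgeR). With 6 and 3 raw counts in the controls, Bcl10 passed the filter through its LPS libraries. The Bcl10 call rests on few counts: its adjusted p was 0.118 without control 2, 0.142 without LPS 1, 0.129 without LPS 2 and 0.248 in DESeq2. That of Pik3ap1 was 0.109 without LPS 1 and 0.196 without LPS 2. Rac2, the GTPase of myeloid phagocytosis and the most abundant of the list, was at 560 ± 54.9 and 690 ± 53.9 and did not pass (adjusted p = 0.516).

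On the list drawn up as inhibitors of ITAM signals, 13 of 25 in the table were tested and 2 were higher, with a median of -0.12. The list also holds genes with other roles, such as these 2, and whether they inhibit ITAM signals in these cells was not tested. Socs3, a feedback inhibitor of cytokine signals, rose from 8.44 and 5.91 to 125 and 128 normalised counts, by 18.0-fold (adjusted p = 1.45e-05 in edgeR). With 6 and 7 raw counts in the controls, it passed the filter through its LPS libraries. Ptprj, a receptor phosphatase that acts on Src kinases, rose from 28.1 and 54.0 to 136 and 143, by 3.26-fold (adjusted p = 0.00436).

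Some of the genes around Trem2 were abundant although Trem2 had 1 count, and others, such as Axl, Apoa1 and Ms4a7, were at 0. Of these, Axl and Ms4a7 have 3 records each, the kind of gene that seldom passed the filter, and Apoa1 has 1. The list around Trem2 has 20 genes in the table, and joins ligands, partners and sheddases with others, such as the lysosomal Ctsd and Gpnmb. Of the 20, 14 were tested, with a median of 0.05. edgeR called 0, where 5.53% of all tested records were called, and 1 gene had an unadjusted p below 0.05, against 15.4%. DESeq2 made 1 call and limma-voom 0, against 3.84% and 5.19% of records. Ctsd, a lysosomal protease, had 9328 ± 1898 normalised counts in the controls and 7890 ± 292 after LPS, with overlapping groups. Apoe, a ligand of Trem2, was at 3766 ± 637 and 3106 ± 174 and did not pass, named after its values were seen. Gpnmb, a lysosomal membrane protein, was the gene at unadjusted p below 0.05, outside the naming rule, with 1573 and 3281 in the controls and 1214 and 1272 after LPS. Its controls differed from each other by more than control 1 differed from the LPS libraries, and its adjusted p was 0.0854 in edgeR and 0.0324 in DESeq2.

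**Figure D5:**
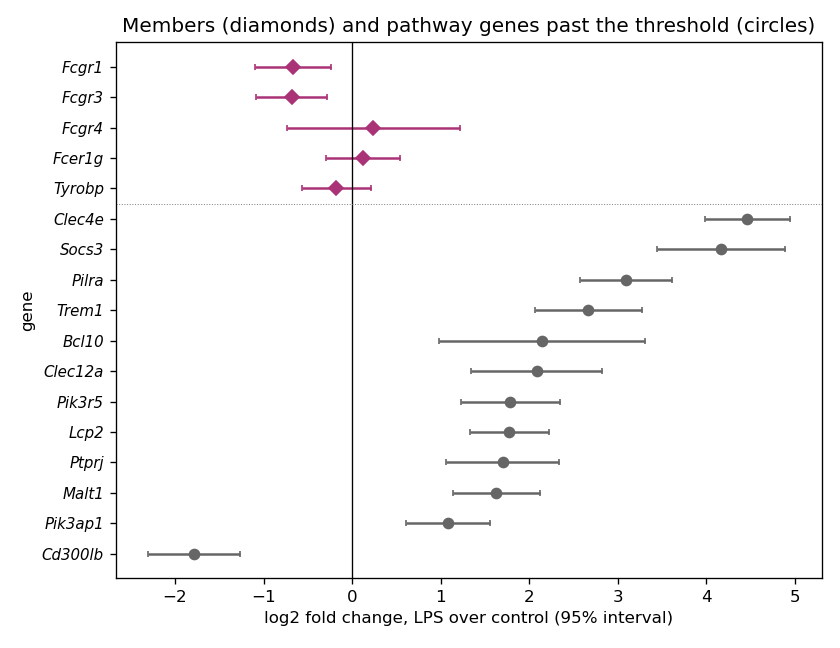
Log2 fold change, LPS over control (x axis), with 95% intervals, for the 5 tested genes of the Fc receptor and ITAM set (diamonds) and for the 12 pathway genes past the adjusted threshold in edgeR (circles). Fcgr1 and Fcgr3 lie at -0.66 and -0.68, Clec4e at 4.47 and Cd300lb at -1.79.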

How the data were processed

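The authors deposited whole-number counts of reads for each RefSeq transcript record in 4 libraries. It is named as normalised, but column totals differ and small whole numbers all occur, so the count test of the design was used. Per the labels' protocols, ribosomal RNA was depleted from total RNA and directional, randomly primed libraries were read as 101-base pairs. The submitters' processing notes name HTSeq 0.6.1, TopHat2 2.0.10, Cufflinks 2.2.1, Trimmomatic 0.33, CASAVA 1.8.2 and the build mm10. Not given in the sources used here are their roles, the annotation release and the strand setting.

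Groups and replicate numbers came from sample titles. Symbols and positions (1-based, GRCm38.p6) came from RefSeq tables, which named 32487 of 32915 records, and the most abundant record stands for a gene. edgeR 4.0.16 (R 4.3.3) was run with filterByExpr (minimum count 10), TMM and the quasi-likelihood test, without covariates, with Benjamini-Hochberg adjustment over 6981 records and a threshold of 0.05. Normalised counts are counts over effective library size times its mean, 3119862. The common biological coefficient of variation was 15.8%. Intervals and floors (3 counts over a group) cover counting error only for untested genes, and fitted 95% intervals use the t quantile. Transcript length and GC were known for 99.2% of tested records. Alternatives used DESeq2 1.42.0, limma 3.58.1, other scaling and filters, GC and length trends, summed records, a replicate block and each library left out. The fit was tested on simulated data.

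All 8 genes are named, with all pathway genes past the threshold up to 6 a list, the most abundant of each list, and the 2 most alike genes for each tested member. The members and lists were chosen with earlier results of these data known. Lists are described by counts and medians, without a set test. A few genes on the lists are not reported here.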

Additional observations from a re-analysis of the deposited data

How the results depend on the processing

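Fcgr1 and Fcgr3 had negative log2 fold changes in all 14 alternatives, from -0.78 to -0.54 and from -0.82 to -0.54, and passed the threshold in 5 and 7 of them, with adjusted p from 3.2e-06 to 1.0 and from 1.8e-09 to 0.815. Fcer1g (0.01 to 0.25) and Tyrobp (-0.28 to -0.07) passed in none. Fcgr4 (0.24) ran from -0.25 to 0.72 with a library left out, negative without control 2 (-0.25) and without LPS 1 (-0.04), and the change of the Fcgr1 to Fcgr3 ratio (0.01) turned to -0.01 without control 1 and -0.12 without LPS 1, with a highest value of 0.14 without LPS 2.

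Members called lower numbered 1 without a count filter and 1 at a mean of at least 50, 2 with GC and length trends removed, and 0 to 2 with a library left out. Records called higher and lower were 267 and 119; 440 and 340 with the trends removed; 164 and 54 at a mean of at least 50; and 165 to 723 and 39 to 581 with a library left out. Those lower were 66 in DESeq2 and 209 without a filter. Pathway genes called lower, 1 in the fit reported, were 2 in DESeq2, 2 without a filter, 4 with the trends removed and 1 to 8 with a library left out. The causes were not tested, apart from fewer records or libraries where the setting itself leaves them out.

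Nothing says that replicate numbers pair the libraries. Deviations of same-numbered libraries correlated at 0.24, with 2 pairs only. With the replicate block, 401 records were higher and 288 lower, 2 members (Fcgr1, adjusted p = 0.00705, and Fcgr3, 0.00423, in edgeR) and 4 pathway genes were lower. With the block and trends removed these were 557, 543, 2 and 5. The planned ratio of activating receptors to Fcgr2b gave no value, since Fcgr2b had 0 to 2 counts a library. Low counts limit what can be said of Fcgr2b, Fcgr4, Syk and Trem2, and their cause was not tested.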
